A study of Homo sapiens with 2 samples.

Results

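The nuclear genes for subunits of the mitochondrial respiratory chain were examined on the 2 arrays of this study of RKO, a human cell line established from a colon cancer. The rule used gene symbols alone. A gene was taken when a probe set carried its symbol as the only one and that symbol began with NDUFA, NDUFB, NDUFC, NDUFS or NDUFV (complex I), was SDHA, SDHB, SDHC or SDHD (complex II), or began with UQCR (complex III), COX4, COX5, COX6, COX7 or COX8 (complex IV) or ATP5 (complex V). This took 90 of 19775 genes. Of these, 76 encode subunits: 33 of complex I, 3 of complex II, 6 of complex III, 17 of complex IV and 17 of complex V. The prefixes also took 9 protein-coding genes that are not structural subunits, which are the complex I assembly factors NDUFAF1 to NDUFAF8 and the ATP synthase inhibitor ATP5IF1. The other 5 are pseudogenes or non-coding genes (COX6A1P1, ATP5MC2P1, NDUFB2-AS1, NDUFV1-DT and NDUFV2-AS1). Both sets were kept apart from the subunits. Further subunits, among them those whose probe sets carry several symbols, are outside this rule.

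Both arrays came from RKO cells infected with a retrovirus that expressed a hairpin, either against luciferase as the control (sh-Luci) or against the L form of the nuclear protein BCLAF1 (sh-BCLAF1-L). The medium was changed after 24 h, and puromycin at 2 ug/ml for 72 to 96 h then selected infected cells, so each culture was a selected pool of infected cells. A single hairpin against BCLAF1 was used, and each group had 1 array, so a difference between hairpins, cultures or arrays cannot be told apart and no p-value or replicate error exists for any value below. Intensities are the authors' linear probe set values, and a difference is log2(value + 1) of sh-BCLAF1-L minus that of sh-Luci.

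The respiratory chain passes electrons from NADH through complex I and from succinate through complex II to ubiquinone, then through complex III and cytochrome c to complex IV, which reduces oxygen. Complexes I, III and IV pump protons out of the mitochondrial matrix, and complex V, the ATP synthase, lets them return to make ATP. Complexes I, III, IV and V combine subunits encoded in the nucleus with subunits encoded in mitochondrial DNA, whereas complex II is encoded by nuclear genes alone.

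The arrays had medians of 82.7 in the control and 84.5 in the knockdown over 54675 probe sets, whose median difference was 0.026. On its brightest probe set BCLAF1 itself had 2505 in the control against 945 in the knockdown, a difference of -1.41, and all 6 of its probe sets were lower. A gene was counted as detected when the mean of its brightest probe set over both arrays was at or above the 40th percentile of the array's probe sets, an intensity of 63.7, which 14507 genes did. The 18 bacterial spike-in probe sets that monitor hybridisation were all higher on the knockdown array, by a median of 0.20, which is above the size of the median difference of each complex; its part in the results below was not tested. For ACTB, the 3′ probe set was 3.41 times as bright as the 5′ one in the control and 3.81 times in the knockdown, a quantity that depends on RNA integrity. The same ratio for GAPDH was 1.38 in the control and 1.49 in the knockdown. Of 11 colon epithelial markers, 7 were detected, and CDH1, CDH17, KRT19 and KRT20 were not. The brighter ones were KRT18 (979 and 674), EPCAM (477 and 472) and LGALS4 (186 and 143). KRT8 (96.0 and 97.6), MUC2 (87.5 and 93.9), CDX2 (67.4 and 77.3) and VIL1 (61.1 and 67.5) were close to the detection intensity. Markers of other cell types were detected in part. Detected means only that a probe set reached that percentile of the array, which does not by itself show that a gene is expressed. Of 5 blood cell markers, CD79A (613 and 516), HBB (196 and 226) and CD3E (135 and 111) were detected, and PTPRC and CD14 were not. Of 4 endothelial markers, VWF (177 and 194) and PECAM1 (119 on both arrays) were detected, and CDH5 and KDR were not. Of 6 fibroblast markers, COL1A1 (355 and 397), DCN (96.2 and 95.7), COL1A2 (67.0 and 71.9) and LUM (63.4 and 72.3) were detected, and COL3A1 and PDGFRB were not. The part of these markers in the results below was not tested. Both arrays were labelled from 200 ng of RNA, so a shift of all RNA per cell would not appear in these values. The submitters' processing notes name RMA. In its usual form RMA sets the probe intensities of all arrays to 1 distribution before combining them into probe set values. Whether that step was run is not stated and was not tested. The probe set values do not share 1 distribution: besides the medians, the highest intensities were 17349 in the control and 16650 in the knockdown.

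The subunit transcripts were close to equal in the knockdown and the control. Of the 76 subunits, 71 were detected, and their median difference was -0.008 (quartiles -0.063 and 0.028), against 0.019 over all detected genes. The differences ran from -0.20 for NDUFV3 to 0.28 for NDUFS4. At least 1.2-fold higher was 1 subunit, NDUFS4, where 6.86% of all detected genes were, and at least 1.2-fold lower was none, where 4.26% of all detected genes were. Within 1.1-fold of equality in either direction were 59 of the 71 subunits (83.1%), where 62.5% of all detected genes were. These counts describe this pair of arrays and have no replicate check.

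Most subunits had bright probe sets, and bright probe sets of any gene differed less between the arrays. The SD of the differences was 0.093 over the 71 subunits, 0.17 over all detected genes and 0.14 over the 2274 genes with a mean intensity of at least 1000. Of the 62 subunits at or above that intensity, none was past 1.2-fold, where 2.55% of such genes were higher and 2.37% lower, and 53 (85.5%) lay within 1.1-fold, where 75.7% of such genes did. The control median was 2858 in the 62 subunits and 1663 in the 2274 genes, so the 2 sets were not matched for intensity. The intensity limit of 1000 was set after the values had been seen.

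A difference above 0 was found for 30 of the 71 subunits and below 0 for 41, where 55% of all detected genes were above 0. This split depended on how the arrays were centred: with the median difference of all probe sets subtracted it was 19 above and 52 below, where 48.0% of detected genes were above 0. Subtracting 0.026 from every difference turned the sign of 11 subunits, whose differences lay between 0 and 0.026.

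**Figure D1:**
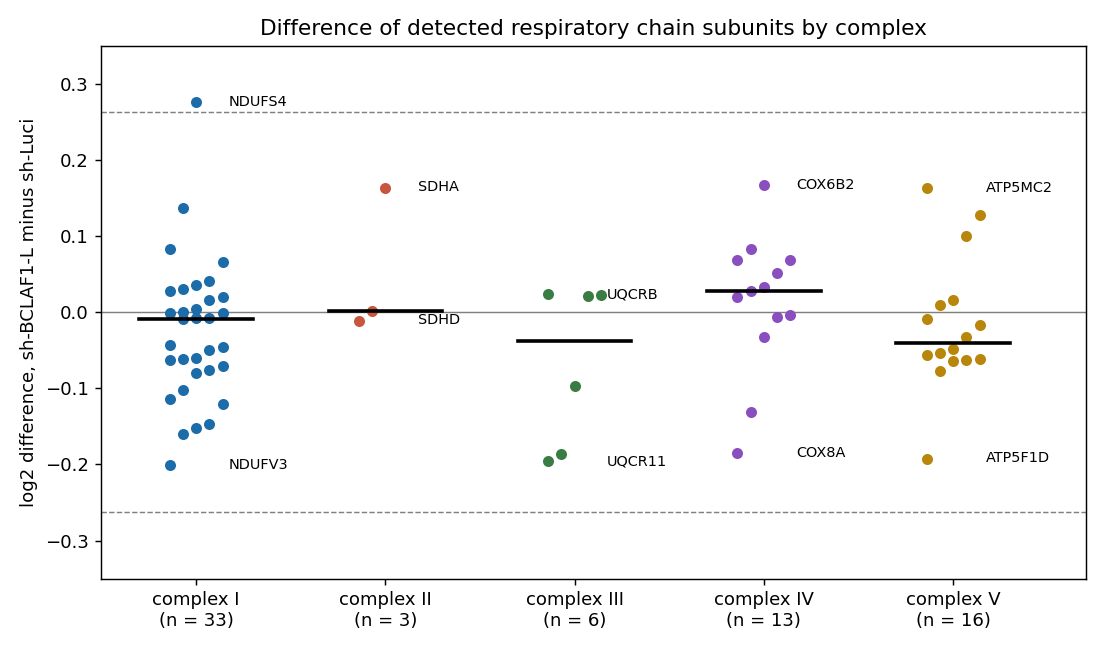
Log2 difference (sh-BCLAF1-L minus sh-Luci) of the 71 detected subunits, 1 point per gene on its brightest probe set, by complex. Black bars are medians, dashed lines mark 1.2-fold, and the horizontal spread of points has no meaning. NDUFS4 at 0.28 is the single point past a dashed line, and the lowest point is NDUFV3 at -0.20.

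Nuclear respiratory chain genes are textbook targets of the transcription factors NRF1 and GABP and of YY1, and the promoter windows of the subunits were searched for a short core of each motif. The windows, from RefSeq on GRCh38.p14, run from 250 bases before to 50 bases after a gene's start. They were found for 65 of the 76 subunits, with 78 windows in all since some genes have several. The NRF1 core GCGCATGC, on either strand, was in 14 of 78 windows (17.9%) and in 3.74% of 22199 windows of protein-coding genes of the same length. The GABP core CCGGAAGT, which other ETS factors share, was in 11 (14.1%) against 5.34%, and the YY1 core AAGATGGC in 12 (15.4%) against 3.53%. At least 1 of the 3 was in 31 windows (39.7%), against 11.6% of protein-coding windows. The NRF1 core overlaps its own reverse complement, so a 10-base palindrome holds it on both strands. A match of letters does not show that a factor binds.

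The ranges of the difference with and without these letters overlapped, and no difference between them was tested. The 29 detected subunits with any core had a median difference of -0.011 (-0.20 to 0.28), and the 34 detected subunits with a window but no core had -0.008 (-0.20 to 0.17). For the NRF1 core the medians were 0.004 in 13 subunits with it and -0.033 in 50 without it. For the GABP core they were -0.063 in 11 and -0.005 in 52, and for the YY1 core -0.008 in 11 and -0.010 in 52.

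The following windows are shown for subunits at different places in that range, with the matched cores in capitals. NDUFS4, the subunit with the highest difference, has a YY1 core (chr5:53560389-53560688, plus strand). ATP5F1C, whose 3 bright probe sets were all higher and whose dim one differed by -0.030, has an NRF1 palindrome (chr10:7787927-7788226, plus strand). SDHD, which read nearly equal on both arrays, has an NRF1 palindrome and a GABP core (chr11:112086623-112086922, plus strand). UQCR11, the subunit with the lowest difference in complex III, has a GABP core (chr19:1605413-1605712, minus strand). All are written 5′ to 3′ along the gene.
NDUFS4: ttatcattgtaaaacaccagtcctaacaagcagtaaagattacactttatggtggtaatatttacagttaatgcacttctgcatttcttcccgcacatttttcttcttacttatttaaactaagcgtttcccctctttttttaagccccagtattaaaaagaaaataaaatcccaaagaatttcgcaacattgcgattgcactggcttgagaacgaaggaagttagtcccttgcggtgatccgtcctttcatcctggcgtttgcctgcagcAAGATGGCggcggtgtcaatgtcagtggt
ATP5F1C: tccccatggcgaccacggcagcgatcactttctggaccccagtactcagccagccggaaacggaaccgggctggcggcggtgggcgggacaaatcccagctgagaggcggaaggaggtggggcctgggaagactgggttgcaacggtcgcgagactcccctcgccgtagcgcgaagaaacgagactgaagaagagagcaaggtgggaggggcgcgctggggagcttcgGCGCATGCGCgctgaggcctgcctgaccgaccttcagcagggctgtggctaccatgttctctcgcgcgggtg
SDHD: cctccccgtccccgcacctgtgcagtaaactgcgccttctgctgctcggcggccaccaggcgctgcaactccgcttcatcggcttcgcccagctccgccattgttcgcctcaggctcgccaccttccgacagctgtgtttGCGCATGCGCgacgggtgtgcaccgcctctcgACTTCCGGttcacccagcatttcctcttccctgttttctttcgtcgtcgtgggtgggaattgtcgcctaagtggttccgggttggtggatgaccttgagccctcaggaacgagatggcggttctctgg
UQCR11: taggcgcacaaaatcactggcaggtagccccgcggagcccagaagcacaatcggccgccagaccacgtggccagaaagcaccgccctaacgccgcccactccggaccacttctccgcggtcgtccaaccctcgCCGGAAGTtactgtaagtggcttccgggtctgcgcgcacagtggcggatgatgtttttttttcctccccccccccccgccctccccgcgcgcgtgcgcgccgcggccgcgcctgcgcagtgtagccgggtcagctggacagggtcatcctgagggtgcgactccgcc

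Complex I, the NADH dehydrogenase, had 33 detected subunits with a median difference of -0.008, of which 12 were above 0 and 21 below. NDUFS4, an accessory subunit of the arm that oxidises NADH, read 811 in the control, against 983 in the knockdown, which is a difference of 0.28. The next highest difference, 0.14, belonged to NDUFA2, an accessory subunit of the same arm, which read 2077 and 2285. At the other end, NDUFV3, an accessory subunit that sits beside the NADH-binding flavoprotein, read 493 and 428, a difference of -0.20. Its second detected probe set was also lower, at 166 and 140.

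Several small subunits of complex I followed at the lower end, none past 1.2-fold. NDUFV2, a core subunit that carries an iron-sulfur cluster, read 2705 and 2421. NDUFC1, an accessory subunit of the membrane arm, read 3711 and 3351. NDUFA1, another membrane-arm subunit, read 2522 and 2271. Their differences were -0.16, -0.15 and -0.15. The complex I probe sets with the strongest signal were those of NDUFB9 (4695 and 4668) and NDUFAB1, the mitochondrial acyl carrier protein (3998 and 3994), and both were equal within 1%.

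By position in complex I, the 5 measured core subunits ran from -0.16 for NDUFV2 to 0.001 for NDUFS1, with a median of -0.045. Among them, NDUFV1, which binds NADH, read 1107 and 1073, and NDUFS1, which carries several iron-sulfur clusters, read 929 on both arrays. The 28 accessory subunits had a median of -0.008. The 14 subunits of the matrix arm had a median close to 0, with 7 above 0 and 7 below. The 18 subunits of the membrane arm had a median of -0.061, with 5 above 0 and 13 below, and ran from -0.15 for NDUFA1 to 0.083 for NDUFB5.

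Complex II, the succinate dehydrogenase, had 3 subunits in the set. SDHA, the flavoprotein that oxidises succinate, read 1671 and 1872, a difference of 0.16. Its probe set has a name of the kind that can match several transcripts, and SDHA has near-identical pseudogenes, so the transcripts behind the SDHA value are uncertain. A probe set that SDHA shares with the pseudogenes SDHAP1, SDHAP2 and SDHAP4 read 175 and 196, a difference of 0.16. The membrane anchors SDHC and SDHD differed by 0.001 and -0.011, at 1186 and 1187 for SDHC and 1930 and 1915 for SDHD. Over its 7 detected probe sets SDHC ran from -0.32 to 0.14, and the 3 brightest, at 638 to 1186 in the control, lay between 0.001 and 0.084. The median of complex II was 0.001, and it changed sign with the settings: it was 0.070 with the median over probe sets, -0.025 after median subtraction, -0.010 after loess and -0.14 without probe sets named _s_at or _x_at.

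Complex III, the cytochrome bc1 complex, had 6 detected subunits with a median of -0.038. Of these, 3 were close to equal and 3 were lower. UQCR11, a small subunit, read 2071 and 1808, a difference of -0.20, and its dimmer probe set went the other way, at 148 and 157. UQCRC1, a core subunit, read 2305 and 2026, a difference of -0.19, and its partner in the core, UQCRC2, read 1224 and 1243. UQCRQ, a small subunit near the ubiquinone site, read 4537 and 4241. UQCRB, which also lies near the ubiquinone site, had 3 detected probe sets between -0.014 and 0.024, the brightest at 4644 and 4720. UQCR10 read 3184 and 3234 on its brightest probe set, and 274 and 201 on its dimmer one. Outside the prefixes, CYC1, the cytochrome c1 haem protein of the same complex, read 1404 and 1214, a difference of -0.21.

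Complex IV, the cytochrome c oxidase, had 13 detected subunits with a median of 0.028, of which 8 were above 0 and 5 below. That median was -0.006 with the median over probe sets, -0.005 without probe sets named _s_at or _x_at and 0.002 after median subtraction. COX8A, a small membrane subunit, read 2384 and 2096, a difference of -0.19. Among the ubiquitous subunits the highest difference, 0.083, was that of COX5B, a zinc-binding subunit on the matrix side, at 1815 and 1923. Its next 2 probe sets went the other way, at 1883 and 1800 (-0.065) and at 1077 and 1004 (-0.10). Its dim remaining one differed by 0.47. COX4I1, the common form of the largest nuclear subunit, read 4436 and 4654, and a second bright probe set of it read 3490 and 3981, a difference of 0.19. COX6C, the brightest probe set of this complex, read 6081 and 6376, and COX7C read 5736 and 5944. COX7A2L, a relative of COX7A2 that takes part in joining complexes III and IV, read 1460 and 1453. COXFA4, formerly NDUFA4 and now counted with complex IV, lies outside the prefixes and read 2875 and 2827.

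The tissue-restricted isoforms of complex IV were dim. COX4I2, COX7A1, COX7B2 and COX8C had means below the detection intensity, and their control values ran from 7.93 to 67.9. COX6A2, the heart and muscle form, read 160 and 146, and COX6B2, the testis form, read 83.7 and 94.1, which is close to the detection intensity. Their ubiquitous counterparts COX6A1 (4932 and 4922) and COX6B1 (2926 and 2994) were equal within 1.1-fold.

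Complex V, the ATP synthase, had 16 detected subunits with a median of -0.040, of which 5 were above 0 and 11 below. In the catalytic F1 head and its central stalk, ATP5F1A read 6809 and 6587, ATP5F1E, the epsilon subunit, read 5366 and 5141, and ATP5F1B, which carries the catalytic sites, read 4015 and 4306. ATP5F1C, the gamma subunit of the rotor, read 4603 and 5028, a difference of 0.13. Its next 2 probe sets differed by 0.13 and 0.11, and the dim remaining one by -0.030. All but the dim one have names (_x_at) of the kind that can match several transcripts. ATP5F1D, the delta subunit of the same stalk, read 1301 and 1139, a difference of -0.19, with -0.068 on its second probe set. The F1 genes thus lay on both sides of equality.

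The c-ring genes ATP5MC1, ATP5MC2 and ATP5MC3 encode the same mature protein. ATP5MC2 read 2915 and 3265, a difference of 0.16, ATP5MC1 differed by 0.016 and ATP5MC3 by -0.056. Of the 3 groups of this complex, the 8 detected peripheral stalk and membrane subunits were the most uniform on their brightest probe sets (SD 0.031). They ran from -0.077 for ATP5PF to 0.010 for ATP5ME, with 7 of 8 below 0 and all within 1.1-fold. Other probe sets of these genes went past 1.1-fold. ATP5MJ read 1449 and 1221 (-0.25) and ATP5MG 859 and 745 (-0.20) on such probe sets. Dim ones of ATP5PB and ATP5PO differed by -0.15 and 0.17. A dim probe set (49.2 and 34.1) was the only one with ATP5MF as its single symbol, so ATP5MF was not detected, whereas a bright probe set that ATP5MF shares with a non-coding gene read 2716 and 2677.

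**Figure D2:**
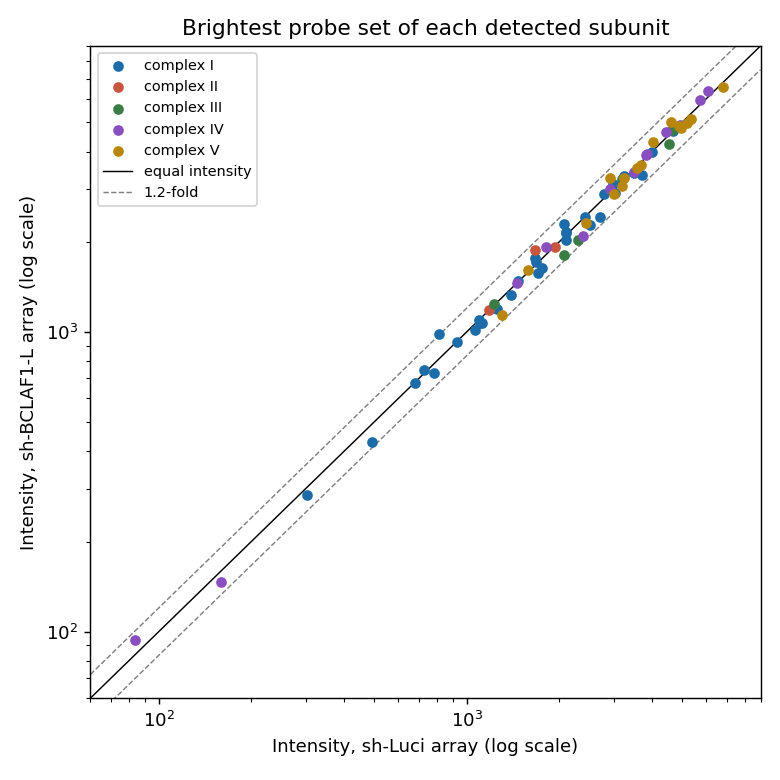
Intensity of the brightest probe set of each of the 71 detected subunits on the sh-Luci array (horizontal, log scale) and the sh-BCLAF1-L array (vertical, log scale), coloured by complex. The solid line is equal intensity and the dashed lines are 1.2-fold; NDUFS4, at 811 and 983, is the single point outside them.

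Other probe sets of the same genes bear on how far these values can be read. Of the 71 subunits, 37 had 1 detected probe set and 34 had at least 2. The signs of all detected probe sets were equal in 11 of the 34 and mixed in 23. The pooled SD between probe sets of the same subunit was 0.15, which is larger than the SD of 0.093 between subunits on their brightest probe sets. Dim probe sets spread more: the SD of the differences was 0.089 over 78 subunit probe sets with a mean intensity of at least 1000 and 0.21 over 32 under 300. Of 127 detected subunit probe sets, 8 were past 1.2-fold, of which 7 were under 300 and the other is that of NDUFS4.

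In 8 subunits, detected probe sets had opposite signs and lay over 0.3 apart. NDUFS4 was among them: its second probe set read 75.5 and 72.7, a difference of -0.054, so that the value past 1.2-fold rests on 1 probe set. NDUFS4 was no longer past 1.2-fold with the median over its probe sets (0.11), with the median difference of all probe sets subtracted (0.25) or with a loess curve subtracted (0.26). The widest gap was in COX5B, with 4 probe sets from -0.10 to 0.47, the last at 169 and 235. UQCR10 ran from -0.45 to 0.023, NDUFB8 from -0.098 to 0.38, COX6A1 from -0.003 to 0.34, NDUFA11 from -0.18 to 0.18, SDHC from -0.32 to 0.14 and COX4I1 from -0.13 to 0.19. Which transcript forms these probe sets read was not analysed here.

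**Figure D3:**
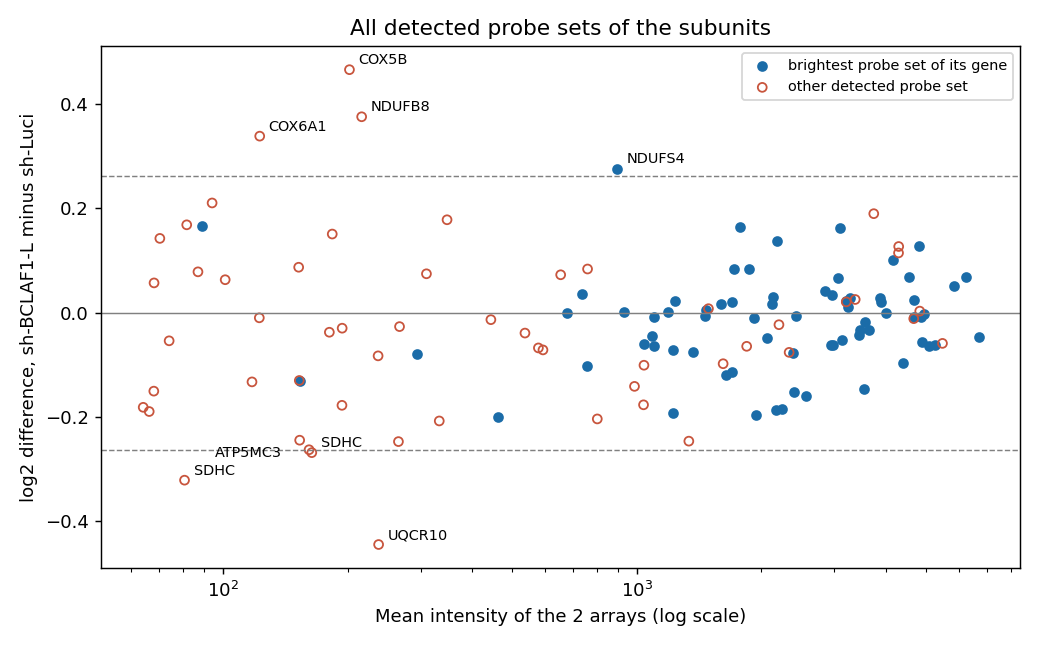
Log2 difference (sh-BCLAF1-L minus sh-Luci) of all 127 detected probe sets of the subunits against their mean intensity (log scale). Filled points are the brightest probe set of a gene, open circles its other detected probe sets, and dashed lines mark 1.2-fold. The spread is wider at the dim end, where the labelled probe sets other than that of NDUFS4 lie.

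The 9 protein-coding genes that the prefixes took without being subunits help to build complex I or regulate the ATP synthase. The 8 NDUFAF genes, which help to build complex I, were all detected. NDUFAF8 read 2077 and 1770, a difference of -0.23, and its second detected probe set was lower too, at -0.21. NDUFAF5 read 630 and 715, a difference of 0.18, and its second detected probe set differed by 0.19. NDUFAF4 and NDUFAF6 were below 0, and NDUFAF1, NDUFAF2, NDUFAF3 and NDUFAF7 lay between 0.087 and 0.16. ATP5IF1, which inhibits the ATP synthase when it runs in reverse, read 585 and 605. Of the pseudogenes and non-coding genes, NDUFV1-DT and NDUFB2-AS1 were detected, with differences of 0.065 and 0.11, and the strand read by their probe sets was not analysed here.

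The mitochondrially encoded subunits were measured by probe sets for 7 of their 13 genes. These subunits belong to the same complexes, and 6 of the 7 were slightly lower in the knockdown, with a median of -0.063. Of all detected genes, 55% were above 0. The 6 lower genes were very bright, and the highest intensity of the array was also lower in the knockdown (17349 in the control and 16650). The part of that offset in these values was not tested. ND4, of complex I, read 15797 and 15142. COX1, of complex IV, read 11601 and 10973, and ATP6, of complex V, read 13660 and 13011. ND2 had the lowest difference, -0.16, at 8108 and 7277. ND6, which is encoded on the opposite strand, read 455 and 526, a difference of 0.21. None was past 1.2-fold on its brightest probe set, but the second probe set of ATP6 was, at 2314 and 1789, a difference of -0.37. The second probe sets of ND4 and COX2 differed by -0.068 and -0.050.

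Of 46 detected assembly factors of the chain (the NDUFAF genes included), 3 were at least 1.2-fold higher and 2 at least 1.2-fold lower, with a median of 0.026. These shares are near the 6.86% and 4.26% of all detected genes, and the same background holds for the small counts of the other lists below. COX19, which helps to deliver copper to complex IV, read 138 and 182, with 0.059 as the difference on its second probe set. COX20, a complex IV assembly factor, read 474 and 366, with differences of -0.14 and -0.095 on the other detected probe sets. COA7, another assembly factor, read 341 and 265 on its brightest probe set and 267 on both arrays on its second. The other assembly factors past 1.2-fold were NUBPL (77.9 and 96.2) and SDHAF4 (82.3 and 101), both near the detection intensity. Of 17 genes of electron carriers and ubiquinone synthesis, none was past 1.2-fold, with a median of 0.039. CYCS, cytochrome c itself, was the lowest of these, at 4405 and 3817, a difference of -0.21.

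Among 12 detected genes of the TCA cycle, which supplies NADH and succinate to the chain, 1 was at least 1.2-fold higher and none lower, with a median of -0.004. That gene was IDH2, the mitochondrial isocitrate dehydrogenase that makes NADPH, at 559 and 674, while its dimmer probe set differed by -0.037. CS, citrate synthase, read 2522 and 2162, a difference of -0.22. Among 19 regulators of mitochondrial biogenesis, 1 was higher and 1 lower by at least 1.2-fold, with a median of -0.034. TFAM, which packages mitochondrial DNA and starts its transcription, read 1025 and 835, a difference of -0.30, and the remaining detected probe sets gave -0.28, -0.24 and -0.11. POLG, the mitochondrial DNA polymerase, read 224 and 314, a difference of 0.49, and its dimmer probe sets differed by 0.18 and -0.059. NRF1 read 181 and 177 and GABPA, a GABP subunit, 415 and 488.

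The mitochondrial ribosomal proteins, which translate the mitochondrially encoded subunits, had 75 detected genes with a median of -0.073, of which 54 were below 0 and 21 (28.0%) above, where 55% of all detected genes were above 0. At least 1.2-fold lower were 4 of them, where 4.26% of all detected genes were. At least 1.2-fold higher was 1, where 6.86% were: MRPS31 (535 and 643), whose second probe set read equal. MRPL38 read 175 and 114, a difference of -0.61, while its second probe set differed by -0.040. MRPS34 read 675 and 542, and MRPL54 read 390 and 314. The remaining gene past that line, MRPL20, read 2162 and 1755. No difference between these lists and the subunits was tested, since each group has 1 array.

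**Figure D4:**
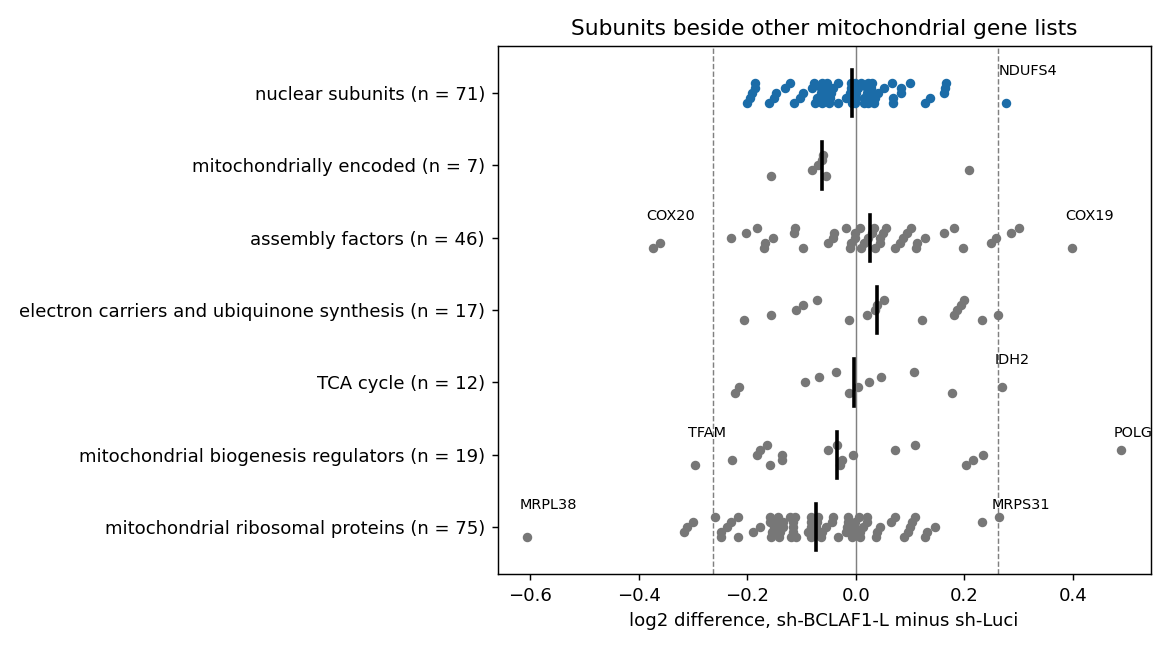
Log2 difference (sh-BCLAF1-L minus sh-Luci) of the 71 detected nuclear subunits and of the detected genes of 6 other mitochondrial lists, 1 point per gene, with black bars at the medians and dashed lines at 1.2-fold. The vertical spread of points within a list has no meaning. The subunits lie between -0.20 and 0.28, while the mitochondrial ribosomal proteins reach -0.61 (MRPL38) and the biogenesis regulators 0.49 (POLG).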

How the data were processed

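Total RNA from 2 RKO cultures was labelled as biotinylated cRNA from 200 ng with an Affymetrix kit, per the labels' protocols. The deposited values are linear intensities, 1 per probe set and array, made with RMA per the submitters' processing notes. No source used here names the program, its version or the steps of RMA that were run. The values do not share 1 distribution over the arrays, as given above. The probe annotation gave 1 symbol to 41097 of 54675 probe sets, several to 1801 and none to 11777. Symbols were updated through Entrez identifiers in RefSeq (GRCh38.p14), which held 41043 of the 41097.

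Intensities were transformed as log2(value + 1). Each gene was represented by its brightest probe set (highest mean log2 value). The members, lists, motifs and the 1.2-fold line were chosen with earlier results of these data known. Every gene of the set could be named; of the other lists, up to 3 genes per direction past 1.2-fold. CS, CYCS, CYC1, COXFA4, NRF1, GABPA, MRPL20, the mitochondrially encoded genes and the markers were named outside that rule, after their values were seen. With 1 array per group no test was run, and the number of arrays limits the precision. Analyses used Python 3.11.15, pandas 2.3.3 and statsmodels 0.14.6. The procedure was also run on simulated data with the same noise SD for every probe set. In the real arrays dim probe sets spread more, so that run does not measure the precision of these values. Alternatives were the median over probe sets, leaving out _s_at and _x_at probe sets, other filters, pseudocount 32, centring by the median or loess, other folds and other memberships.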

Additional observations from a re-analysis of the deposited data

Results flagged for a closer look

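NDUFS8, a core subunit of complex I, entered no comparison because its probe sets carry several symbols. Of these, the dimmest read 219 (control) and 268 (knockdown), a difference of 0.29 that is past 1.2-fold. The other NDUFS8 probe sets read 1317 and 1272 (-0.050) and 371 and 326 (-0.18), so they went the other way. No explanation was tested.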

How the results depend on the processing

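No paired analysis was possible because there was a single array per group; leaving out a replicate was not possible either. The BCLAF1 difference was -1.14 as a median of its probe sets and -0.51 when _s_at and _x_at probe sets were left out. The median over all subunits was -0.035, -0.039 and -0.034 with the median over probe sets, without _s_at and _x_at probe sets and with the median difference subtracted, and between -0.039 and -0.007 over its 10 alternatives. The complex I median was -0.046 with the median over probe sets, and the complex II median -0.14 over 2 subunits without _s_at and _x_at probe sets. Subunits at least 1.2-fold higher numbered 0 with the median over probe sets, after median subtraction and after loess, 2 (COX5B and NDUFS4) without _s_at and _x_at probe sets and 3 (COX7A1, COX8C and NDUFS4) without a filter. It was 4 at 1.1-fold, 0 at 1.5-fold and 0 at 2-fold. The number lower was 1 (ATP5F1E) with the median over probe sets and 2 (SDHC and UQCR10) without _s_at and _x_at probe sets. It was 2 (ATP5MF and COX4I2) without a filter and 8 at 1.1-fold. The ATP5F1E result rests on a second probe set below the detection intensity, at 38.0 in the control and 24.6 in the knockdown (-0.61). Its bright one differed by -0.062. Within 1.1-fold lay 59 of the 71 subunits, where 62.5% of all detected genes did. For the other settings, the share of all genes past the line is not given here. Above 0 were 15 of 54 subunits without _s_at and _x_at probe sets, where 55.1% of 11511 detected genes were. After median subtraction 19 of 71 subunits were above 0, where 48.0% of detected genes were. Without _s_at and _x_at probe sets, UQCR11 differed by 0.087 and ATP5F1C by -0.030. NDUFS4 differed by 0.11 with the median over probe sets. The cause of these shifts was not tested. Signal limits the dim values: subunit probe sets under an intensity of 300 had an SD of 0.21.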
